A study of Homo sapiens with 9 samples.

Results

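Cells hold their volume by taking up or making small neutral solutes, and this account follows 7 transcripts of that system in hypoxic colorectal cancer cells: the transporter genes SLC5A3, SLC6A6 and SLC2A13, the inositol synthesis genes ISYNA1, IMPA1 and IMPA2, and the transcription factor gene NFAT5. They are 7 of the 41041 genes in the deposited table, matched by symbol to their Ensembl identifiers, and all 7 were found. Of these, 6 were listed by function, as were the related lists below. Earlier results of these data were known at that point, so their tests do not come from a blind choice. SLC5A3 was chosen by its FPKM values in these same libraries, for a graded fall over the 3 groups. Its levels are therefore a description and carry no test.

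Myo-inositol and taurine are organic osmolytes, solutes that a cell can hold at high level without disturbing its proteins. In high salt the factor NFAT5 raises the genes of their sodium-coupled uptake carriers, while in swelling cells volume-regulated anion channels built from LRRC8 proteins let them out. Inositol is also made from glucose 6-phosphate by the synthase ISYNA1 and a monophosphatase, IMPA1 or IMPA2, and it is the head group of the phosphoinositide lipids.

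Poly(A) RNA was sequenced from SW480, an established human colorectal adenocarcinoma line, grown for 48 h at 1% oxygen. The control group was hypoxic and untreated, the SFN group was hypoxic with sulforaphane at 25 µM, an isothiocyanate from cruciferous vegetables, and the SFN+5-FU group was hypoxic with sulforaphane and 5-fluorouracil, a pyrimidine analogue. The treatment protocol spells the combined agent as sulforaphiluracil (SFN + 5-FU), and for this group neither the SFN dose nor the 5-FU dose was given. Each group has 3 libraries, described as biological replicates without mention of separate cultures, so p-values measure the spread between these libraries. All 3 groups share the hypoxia, and neither normal oxygen nor 5-FU alone was analysed here. The medium's osmolality and the cells' volume are not in these data.

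Levels are FPKM, fragments scaled by transcript length and library size, and genes can be compared on this scale because it is per length. Summed over genes, each library held 259184 to 272235 FPKM. The fragments behind these values, and so the depth, are unknown. Of 8 colorectal epithelium markers 7 had a mean of at least 1 FPKM (KRT20 did not). Their summed level was 2552 to 2596 FPKM in control, 1768 to 2383 with SFN and 1707 to 1722 with SFN+5-FU, and its part in the results below was not tested. Markers of leukocytes, fibroblasts and endothelium summed to at most 5.15, 2.03 and 0.92 FPKM in any library, with PTPRC and CDH5 listed at 0 in all 9. A mean of at least 1 FPKM was reached by 2 of 5 leukocyte markers (CD14 at 1.45 and LYZ at 2.03). It was also reached by 1 of 5 fibroblast markers (COL1A1 at 1.03) and 0 of 4 endothelium markers. In bulk RNA, fewer cells of a kind and less RNA per cell cannot be told apart. The library labelled SFN replicate 2 stood apart from its group. Across tested genes it correlated at 0.993 with each SFN+5-FU library and at 0.963 and 0.968 with SFN replicates 1 and 3, which correlated at 0.990 with each other. It is kept in its labelled group, and results that rest on it are also given without it. The SFN group is then replicates 1 and 3 only. Because SFN replicate 2 was singled out by these same values, p-values without it can be too small.

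SLC5A3 shares its start with another gene, and the shared sequence is shown because it bears on how its values can be read. The RefSeq promoter windows (250 bases before the start to 50 after it, build GRCh38.p14) of SLC5A3 and of MRPS6, a protein gene of the small mitochondrial ribosomal subunit, are the same 300 bases on the plus strand, chr21:34073328-34073627. Capitals mark the 50 bases after the start.
SLC5A3 and MRPS6: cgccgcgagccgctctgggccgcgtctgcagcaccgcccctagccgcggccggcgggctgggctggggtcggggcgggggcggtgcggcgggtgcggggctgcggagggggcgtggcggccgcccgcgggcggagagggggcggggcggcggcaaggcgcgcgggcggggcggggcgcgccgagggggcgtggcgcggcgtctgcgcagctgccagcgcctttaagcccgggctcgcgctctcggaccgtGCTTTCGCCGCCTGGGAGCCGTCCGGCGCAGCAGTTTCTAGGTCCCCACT
Its GC content is 82.0%, against a median of 58.7% over all 35116 windows. The letters TGGAAA (core of the NFAT5 site), ACGTG (core of the HIF site) and TGACNNNGC (core of the NRF2 site) were searched on both strands, and none is in this window. They occur in 20.7%, 21.4% and 13.3% of all windows. ISYNA1 has 2 windows, also without these letters, and the SLC2A13 window holds ACGTG on both strands in the palindrome CACGTG. Windows of the other 4 genes were not examined here, so nothing is said of their letters. In GENCODE release 29, the coding transcripts of SLC5A3 (11576 bases) and MRPS6 (990 bases) share 176 exonic bases, 1.52% of the former and 17.8% of the latter. The sources used here do not say how reads over the shared bases were assigned.

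**Figure D1:**
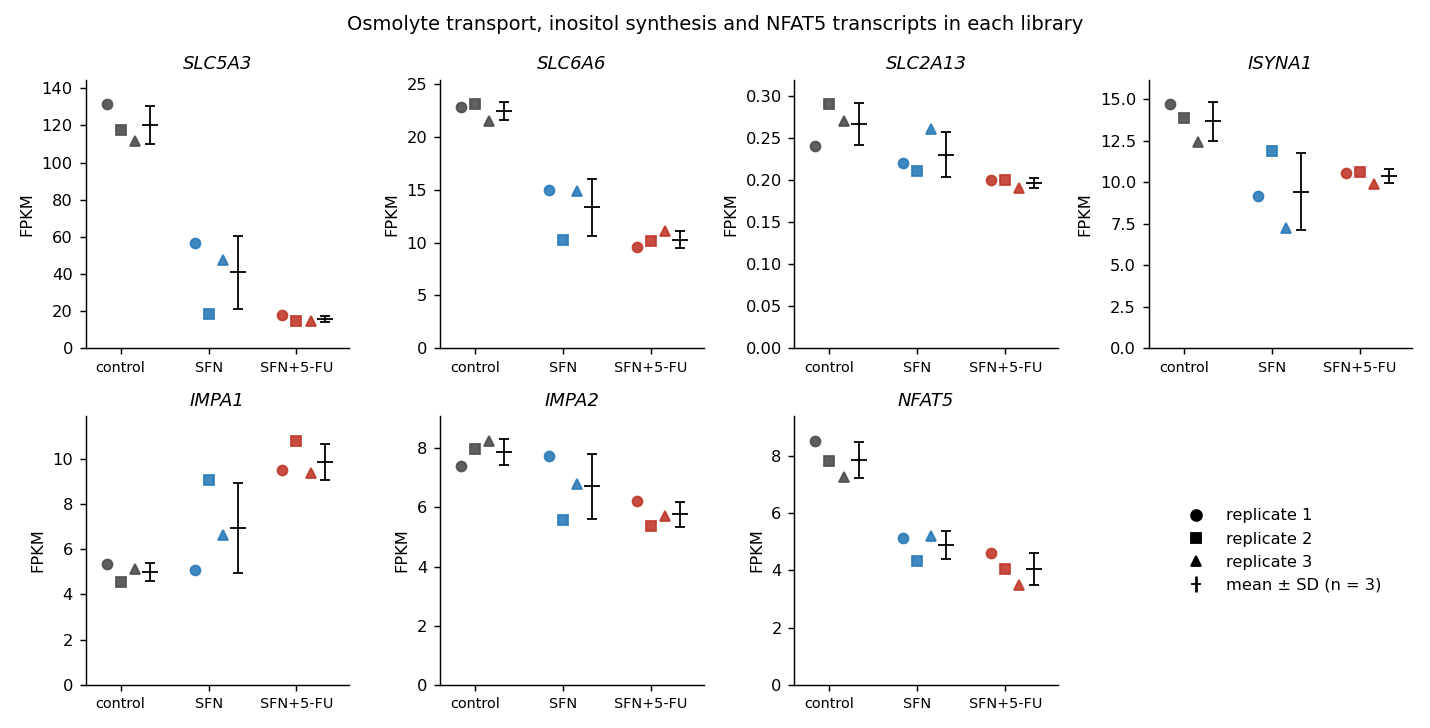
FPKM of the 7 genes in each of the 9 libraries (vertical axis from 0, a scale for each gene), by group, with the mean and SD of 3 libraries as black bars. SLC5A3 was at 112 to 132 FPKM in control and 14.5 to 17.6 with SFN+5-FU. SFN replicate 2 (square) lay near the SFN+5-FU libraries for SLC5A3, SLC6A6, IMPA1, IMPA2 and NFAT5.

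SLC5A3, which encodes the sodium/myo-inositol cotransporter SMIT1, was the most abundant of the 7 in every group and showed the widest spread between groups. Its level was 132, 118 and 112 FPKM in the control libraries, 56.4, 18.5 and 47.3 FPKM in SFN replicates 1, 2 and 3, and 17.6, 14.8 and 14.5 FPKM with SFN+5-FU. No group overlapped another, although SFN replicate 2 was within 1 FPKM of the highest SFN+5-FU library. The group means were 120 ± 10.2, 40.8 ± 19.8 and 15.6 ± 1.73 FPKM (SD, n = 3), so that the SFN and SFN+5-FU means were 33.9% and 13.0% of control. The differences from control were -1.68 and -2.87 on the log2(FPKM + 1) scale, on which all differences here are given and which shrinks those of weakly expressed genes. Without SFN replicate 2 the SFN mean was 51.9 FPKM and its difference from control -1.20. SLC5A3 stood at rank 223 of 12662 tested genes by its control level. By the size of its decrease it stood at rank 72 with SFN and at rank 11 with SFN+5-FU. These ranks describe a gene picked for this pattern.

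SLC6A6 encodes the sodium- and chloride-dependent taurine transporter TauT. It stood at 22.8, 23.1 and 21.5 FPKM in control, at 15.0, 10.3 and 14.8 FPKM in SFN replicates 1, 2 and 3, and at 9.56, 10.1 and 11.1 FPKM with SFN+5-FU. Every treated library was below every control library, and SFN replicate 2 lay within the SFN+5-FU range. In limma, SLC6A6 fell by 0.73 with SFN (SE 0.129, adjusted p = 0.00162) and by 1.06 with SFN+5-FU (SE 0.129, adjusted p = 0.000133). These p-values, like those below, were adjusted over all 12662 genes with a mean of at least 1 FPKM, and a gene is called at an adjusted p under 0.05. Without SFN replicate 2 the decrease with SFN was 0.56 (adjusted p = 0.000156).

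SLC2A13 encodes the proton/myo-inositol cotransporter HMIT, known mainly from brain. It was at 0.19 to 0.29 FPKM in all 9 libraries, below the expression filter, and was not tested. Its group means were 0.267 ± 0.0252, 0.230 ± 0.0265 and 0.197 ± 0.00577 FPKM (SD, n = 3). The related sodium/myo-inositol cotransporter gene SLC5A11 (SMIT2) was at 0 to 0.05 FPKM, so that SLC5A3 was the only one of these 3 inositol carrier genes above 1 FPKM.

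The inositol synthesis genes did not move in 1 direction. ISYNA1, the synthase that makes inositol 3-phosphate, was at 14.7, 13.9 and 12.4 FPKM in control, at 9.15, 11.9 and 7.23 FPKM in SFN replicates 1, 2 and 3, and at 10.6, 10.6 and 9.91 FPKM with SFN+5-FU. All treated libraries were below control, and the lowest were SFN replicates 3 and 1, not the SFN+5-FU libraries. ISYNA1 fell by 0.51 with SFN (SE 0.142, adjusted p = 0.0145, and 0.0560 without control replicate 1). With SFN+5-FU it fell by 0.36 (SE 0.142, adjusted p = 0.0458), a call that was lost with no expression filter, after a correction for GC content and transcript length, and on leaving out control replicate 1, control replicate 2, SFN replicate 1 or any SFN+5-FU library (highest adjusted p = 0.134).

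The monophosphatase genes IMPA1 and IMPA2, whose enzymes release free inositol and are inhibited by lithium, went opposite ways with SFN+5-FU. IMPA1 was at 5.33, 4.55 and 5.11 FPKM in control, at 5.09, 9.05 and 6.64 FPKM in SFN replicates 1, 2 and 3, and at 9.49, 10.8 and 9.36 FPKM with SFN+5-FU. It rose by 0.86 with SFN+5-FU (SE 0.158, adjusted p = 0.00124), reaching 198% of the control mean. With SFN its difference was 0.37 (95% interval 0.02 to 0.73, adjusted p = 0.0753), with SFN replicate 1 among the controls, and it passed the threshold without that library, with library weights and with quantile normalization (adjusted p = 0.00693, 0.00954 and 0.0450). Without SFN replicate 2 the IMPA1 difference with SFN was 0.19 (adjusted p = 0.163 in limma). IMPA2 was at 7.41, 7.96 and 8.25 FPKM in control, at 7.75, 5.58 and 6.79 FPKM in SFN replicates 1, 2 and 3, and at 6.21, 5.38 and 5.70 FPKM with SFN+5-FU. It fell by 0.39 with SFN+5-FU (SE 0.106, adjusted p = 0.00917), and with SFN its difference was -0.21 (95% interval -0.45 to 0.03, adjusted p = 0.122, and 0.0271 without SFN replicate 1). Without SFN replicate 2 the IMPA2 difference with SFN was -0.10 (adjusted p = 0.294 in limma). The ratio of IMPA1 to IMPA2 in FPKM was 0.572 to 0.719 in control, 0.657, 1.62 and 0.978 in SFN replicates 1, 2 and 3, and 1.53 to 2.01 with SFN+5-FU.

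NFAT5, the osmotic-stress transcription factor TonEBP, was lower in every treated library. Its mRNA was at 8.53, 7.81 and 7.27 FPKM in control, at 5.15, 4.33 and 5.19 FPKM in SFN replicates 1, 2 and 3, and at 4.61, 4.04 and 3.48 FPKM with SFN+5-FU. It fell by 0.59 with SFN (SE 0.104, adjusted p = 0.00153) and by 0.82 with SFN+5-FU (SE 0.104, adjusted p = 0.000163). Of the 7 genes its SFN libraries lay closest together in relation to their distance from control. SFN replicate 2 still lay within the SFN+5-FU range, below SFN replicates 1 and 3. Without SFN replicate 2 the decrease with SFN was 0.52 (adjusted p = 0.00193). NFAT5 protein and its movement to the nucleus were not measured.

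Leaving SLC5A3 aside, 5 of the other 6 genes were tested. With SFN 3 fell (SLC6A6, ISYNA1 and NFAT5) and none rose, against 50.0% of all 12662 tested genes called (27.5% higher and 22.5% lower). In these 3 genes the groups did not overlap, as in 25.8% of all tested genes with lower values and 31.6% with higher values. Without SFN replicate 2 SLC6A6, ISYNA1 and NFAT5 were again the 3 called, against 56.9% of all tested genes (30.0% higher and 26.9% lower). With all libraries the median difference of the 5 was -0.51, against 0.05 over all tested genes. With SFN+5-FU 4 fell and 1 rose, against 66.2% of all tested genes called (38.3% higher and 28.0% lower). The groups did not overlap in any of the 5, against 33.2% of all tested genes with lower values and 45.5% with higher values. Without SFN replicate 2, which enters here only through the shared variance, the 5 were again called, against 74.7% of all tested genes (43.4% higher and 31.3% lower). With all libraries their median was -0.39, against 0.10 over all tested genes. The comparisons share the control libraries, so their values are not independent of each other.

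By level, the order in control was SLC5A3, SLC6A6, ISYNA1, IMPA2, NFAT5, IMPA1 and SLC2A13, and only IMPA2 and NFAT5 overlapped in range. With SFN+5-FU the order was SLC5A3, ISYNA1, SLC6A6, IMPA1, IMPA2, NFAT5 and SLC2A13, and ISYNA1, SLC6A6 and IMPA1 overlapped, at means of 10.4, 10.3 and 9.88 FPKM. With SFN, SLC6A6 overlapped with ISYNA1, ISYNA1 with IMPA1, and IMPA1 with IMPA2, while IMPA2 did not overlap with NFAT5. In SFN replicates 1 and 3 alone, none of these pairs overlapped, but the order changed, with IMPA2 above IMPA1. ISYNA1 then overlapped with IMPA2, and IMPA1 with NFAT5. SLC5A3 stood 5.09 to 5.77 times above SLC6A6 in the control libraries and 1.30 to 1.84 times above it with SFN+5-FU, with SFN replicates 1, 2 and 3 at 3.77, 1.81 and 3.19 times.

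The calls between SFN+5-FU and SFN turned on SFN replicate 2. These groups differ by the addition of 5-FU, and whether they also differ in SFN dose is not known. With all libraries, none of the 5 tested genes was called in limma, and 2 (SLC6A6 and IMPA1) had an unadjusted p under 0.05. Over all tested genes 0.00790% were called, a single gene without a symbol in the name table, and 3982 had an unadjusted p under 0.05. The differences were -0.33 for SLC6A6, 0.15 for ISYNA1, 0.49 for IMPA1, -0.18 for IMPA2 and -0.23 for NFAT5, with adjusted p from 0.134 to 0.460. Only IMPA1 had groups that did not overlap, as did 10.6% of all tested genes with higher values and 10.3% with lower values. Without SFN replicate 2, all 5 were called, against 51.2% of all tested genes (29.8% higher and 21.4% lower). Leaving it out also lowered the estimated spread, with the SE of SLC6A6 at 0.0662 in place of 0.129. SLC6A6, IMPA2 and NFAT5 were then lower with SFN+5-FU than with SFN by 0.50, 0.29 and 0.30 (adjusted p = 0.000372, 0.0144 and 0.0325 in limma), and ISYNA1 and IMPA1 were higher by 0.31 and 0.67 (adjusted p = 0.0250 and 0.000971). The ISYNA1 difference also depended on SFN replicate 3, without which it was -0.0076 (adjusted p = 0.973). The descriptive difference of SLC5A3 was -1.19 with all libraries and -1.67 without SFN replicate 2. Weighting the libraries by their fit in place of leaving one out also called all 5, in the same directions. Those weights come from the same values, so they are not a separate check.

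**Figure D2:**
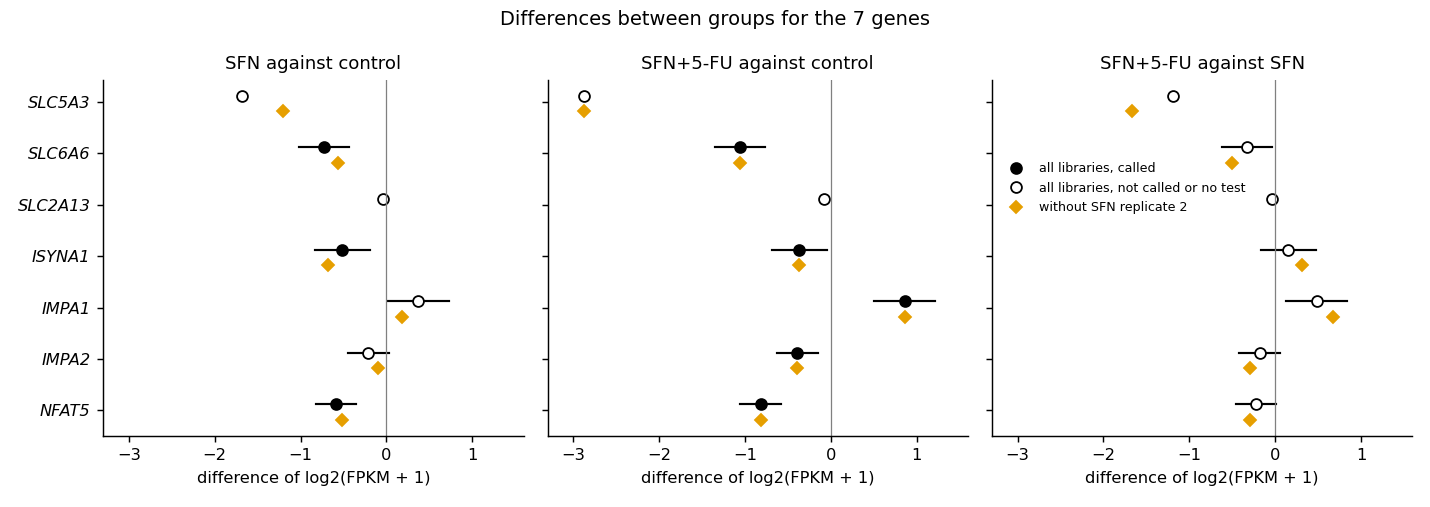
Differences of log2(FPKM + 1) between groups (horizontal axis) for the 7 genes, a panel for each comparison, with circles for all libraries (filled where called, lines for the 95% interval) and diamonds without SFN replicate 2. SLC5A3 and SLC2A13 have no test and no line, and of the 5 tested genes IMPA1 lay to the right of 0 and the other 4 to the left with SFN+5-FU against control.

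MRPS6, which overlaps SLC5A3 on the same strand, followed it. It was at 145, 145 and 134 FPKM in control, at 63.6, 32.0 and 57.8 FPKM in SFN replicates 1, 2 and 3, and at 29.7, 26.4 and 29.8 FPKM with SFN+5-FU. As with SLC5A3, no group overlapped another and SFN replicate 2 was nearest to the SFN+5-FU libraries. The differences from control were -1.51 with SFN and -2.26 with SFN+5-FU, given without a test because the gene shares exon and promoter sequence with SLC5A3. Of 28 other tested MRPS genes, a set chosen after the values were seen, 25 rose and none fell with SFN, and 22 rose and none fell with SFN+5-FU, against 27.5% and 38.3% of all tested genes called higher. Their differences from control with SFN+5-FU ran from -0.08 to 1.04, with a median of 0.45, and that of MRPS6 lay outside this range. The FPKM of SLC5A3 was 0.814 to 0.907 times that of MRPS6 in control and 0.888 and 0.819 times in SFN replicates 1 and 3. It was 0.579 times in SFN replicate 2 and 0.485 to 0.592 times with SFN+5-FU, so the SLC5A3 value was the lower of the pair in every library, and by more in these 4.

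**Figure D3:**
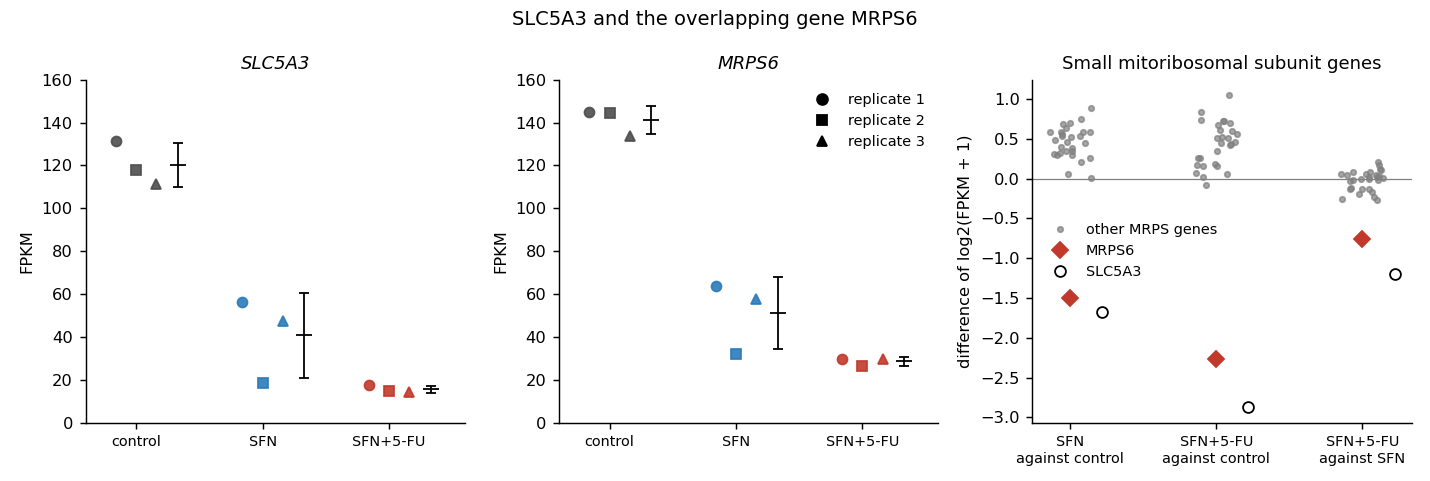
Left and centre, FPKM of SLC5A3 and MRPS6 in each library on the same vertical scale, with the mean and SD of 3 libraries, and right, differences of log2(FPKM + 1) in the 3 comparisons for 28 other MRPS genes (grey), MRPS6 (red) and SLC5A3 (open). Against control the other MRPS genes lie mostly above 0, while MRPS6 is at -1.51 and -2.26 and SLC5A3 at -1.68 and -2.87.

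The genes whose levels over the 9 libraries were most like those of SLC5A3 were PPARD, EGLN3, SYNE3, IGFBP3 and TRIB2, by Pearson correlation of log2(FPKM + 1) among 6811 other genes with a symbol and a mean of at least 5 FPKM. Their coefficients lay between 0.997 and 0.998. They describe likeness only, since the 9 libraries fall into 3 groups and SFN replicate 2 moves in each of these genes. EGLN3, an oxygen-sensing prolyl hydroxylase gene, was at 20.5 ± 1.80, 6.75 ± 3.58 and 2.05 ± 0.318 FPKM in control, SFN and SFN+5-FU (SD, n = 3). IGFBP3, which encodes an insulin-like growth factor binding protein, was at 384 ± 24.7, 129 ± 64.7 and 47.4 ± 6.51 FPKM. PPARD, a nuclear receptor gene, had the closest pattern but a smaller span, at 42.8 ± 1.86, 27.6 ± 5.89 and 19.4 ± 0.444 FPKM. On the same scale MRPS6 ranked 69 (0.992), SLC6A6 228 (0.981), NFAT5 491 (0.958) and IMPA2 730 (0.932). ISYNA1 ranked 2033 (0.438), and IMPA1 was opposed (-0.956).

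Of 16 genes of inositol phosphate and phosphatidylinositol turnover, 14 were tested, and their share of calls was near that of all tested genes with SFN and below it with SFN+5-FU. With SFN 4 rose and 3 fell (1 to 7 called on leaving out 1 library, the lowest without control replicate 1), against 27.5% higher and 22.5% lower over all tested genes, with a median difference of -0.01 against 0.05. With SFN+5-FU 5 rose and 3 fell, against 38.3% higher and 28.0% lower over all tested genes, with a median of 0.16 against 0.10. CDIPT, the enzyme that joins inositol to lipid to make phosphatidylinositol, was at 17.8 to 20.0 FPKM in control, at 22.8, 35.6 and 21.9 FPKM in SFN replicates 1, 2 and 3, and at 35.7 to 38.0 FPKM with SFN+5-FU. It rose by 0.47 with SFN (adjusted p = 0.0305, lost without control replicate 1 or 3, with no filter, with quantile normalization and with only the 6 libraries compared, where it ran from 0.0521 to 0.0867) and by 0.96 with SFN+5-FU (adjusted p = 0.000646). INPP1, a phosphatase on the path from inositol phosphates back to free inositol, was at 6.03 to 6.06 FPKM in control, at 7.40, 13.0 and 7.30 FPKM in SFN replicates 1, 2 and 3, and at 12.7 to 13.7 FPKM with SFN+5-FU. It rose by 1.02 with SFN+5-FU (adjusted p = 0.000807) and by 0.49 with SFN (adjusted p = 0.0399, lost on leaving out any control or any SFN+5-FU library, with no filter, with only the 6 libraries compared and with the GC and length correction, where it reached 0.101). INPP5A, which ends the calcium signal of inositol trisphosphate, fell by 0.66 with SFN and by 1.09 with SFN+5-FU (adjusted p = 0.00978 and 0.000436), from 5.73 ± 0.304 FPKM in control to 2.15 ± 0.140 FPKM with SFN+5-FU (SD, n = 3). In all 3 of these genes SFN replicate 2 was at or near the SFN+5-FU level. Without it the differences with SFN were smaller, at 0.26 for CDIPT, 0.25 for INPP1 and -0.43 for INPP5A (adjusted p = 0.00627, 0.00436 and 0.000782 in limma).

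Among 8 genes of taurine synthesis and use, 4 were above the filter. The synthesis gene CDO1, for cysteine dioxygenase, was at 0 to 0.09 FPKM. ADO, a related thiol dioxygenase gene, rose by 0.36 with SFN+5-FU (adjusted p = 0.00517), from 7.39 ± 0.570 to 9.77 ± 0.243 FPKM. CSAD, the decarboxylase on the route to taurine, was at 1.13 to 1.89 FPKM with no call (adjusted p = 0.247 with SFN and 0.173 with SFN+5-FU). Without SFN replicate 2 the CSAD difference with SFN was -0.28 and was called (adjusted p = 0.0204 in limma). GTPBP3, which takes part in the taurine modification of mitochondrial transfer RNA, rose by 0.23 with SFN and by 0.20 with SFN+5-FU (adjusted p = 0.0243 and 0.0308). Both calls were lost with median-of-ratios scaling (adjusted p = 0.0919 and 0.248), with the replicate number as a block (0.0503 and 0.0599), and on leaving out control replicate 2 or 3. With all libraries, 1 of the 4 rose with SFN and 2 with SFN+5-FU, and none fell, against 27.5% and 38.3% of all tested genes called higher. The list's median was 0.13 in each comparison, against 0.05 and 0.10 over all tested genes.

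Of 10 other osmolyte transport genes and known NFAT5 targets, 7 were tested. With all libraries 3 fell with SFN and 4 with SFN+5-FU, while none rose. Over all tested genes 22.5% and 28.0% were called lower, and 50.0% and 66.2% in either direction. Their median differences were -0.07 and -0.28, against 0.05 and 0.10 over all tested genes. SLC38A2, the neutral amino acid transporter SNAT2 that responds to high salt, was at 34.6, 32.9 and 30.6 FPKM in control, at 19.3, 16.9 and 21.5 FPKM in SFN replicates 1, 2 and 3, and at 15.5, 17.4 and 15.3 FPKM with SFN+5-FU. All treated libraries were below control, and SLC38A2 fell by 0.74 with SFN and by 0.98 with SFN+5-FU (adjusted p = 0.000290 and 4.13e-05). SLC44A1, a choline transporter gene, fell by 0.74 and 1.04 (adjusted p = 0.000800 and 7.63e-05), from 9.13 to 9.49 FPKM in control to 3.86 to 4.11 FPKM with SFN+5-FU. PNPLA6, which makes the osmolyte glycerophosphocholine, fell by 0.38 and 0.57 (adjusted p = 0.00851 and 0.000677), the former lost (adjusted p = 0.219) when GC content and length were corrected for. Without SFN replicate 2 the list went both ways. SORD then rose with SFN by 0.51, and HSPA4L with SFN+5-FU by 0.32 (adjusted p = 0.000165 and 0.00455 in limma). Over all tested genes 30.0% and 43.4% were then called higher. SLC38A2, SLC44A1 and PNPLA6 were still called lower in both comparisons, and SLC6A8 with SFN+5-FU. AKR1B1, the aldose reductase that makes sorbitol and a textbook NFAT5 target, and the betaine carrier gene SLC6A12 were below the filter and were not tested. AKR1B1 was at 0.46 to 0.64 FPKM in control, 0.75 to 1.03 FPKM with SFN and 0.44 to 1.03 FPKM with SFN+5-FU. SLC6A12 was at 0.40 to 0.48, 0.04 to 0.12 and 0.10 to 0.12 FPKM in the same groups.

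The channel genes that release inositol and taurine were higher with SFN+5-FU. Of 5 LRRC8 genes the 3 tested rose, against 38.3% of all tested genes called higher, with a median difference of 0.72 against 0.10. LRRC8A, the subunit that every volume-regulated anion channel needs, was at 21.6, 22.4 and 23.7 FPKM in control, at 22.1, 33.7 and 21.8 FPKM in SFN replicates 1, 2 and 3, and at 33.4, 34.3 and 35.5 FPKM with SFN+5-FU. SFN replicates 1 and 3 lay within the control range, and replicate 2 among the SFN+5-FU libraries. LRRC8A rose by 0.59 with SFN+5-FU (SE 0.143, adjusted p = 0.00554), and its difference with SFN was 0.16 (adjusted p = 0.372, and -0.04 without SFN replicate 2). LRRC8D, a subunit known to favour passage of taurine and other uncharged solutes, rose by 0.52 with SFN and by 0.81 with SFN+5-FU (adjusted p = 0.0138 and 0.000949). It was at 5.43, 9.09 and 6.71 FPKM in SFN replicates 1, 2 and 3 and at 8.39 to 9.12 FPKM with SFN+5-FU. LRRC8E rose by 0.72 with SFN+5-FU (adjusted p = 0.00345), and its difference with SFN was 0.36 (adjusted p = 0.0927, and 0.0373 without SFN replicate 1). Without SFN replicate 2 the differences with SFN were 0.34 for LRRC8D and 0.14 for LRRC8E (adjusted p = 0.00864 and 0.158 in limma). LRRC8B and LRRC8C, below the filter, were at 0.68 to 0.74 and 0.52 to 0.60 FPKM in control and at 1.09 to 1.31 and 1.05 to 1.47 FPKM with SFN+5-FU.

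Of 12 genes of cell volume kinases and ion cotransport, 10 were tested. With SFN 1 rose and none fell, and with SFN+5-FU 1 rose and 3 fell, fewer in proportion than the 50.0% and 66.2% of all tested genes called. The list's medians were -0.14 and 0.00, against 0.05 and 0.10 over all tested genes. SLC12A2, the sodium-potassium-chloride cotransporter NKCC1 of volume increase, rose by 0.65 with SFN and by 0.51 with SFN+5-FU (adjusted p = 0.00189 and 0.00438). It was at 2.49, 2.78 and 2.77 FPKM in control and at 3.79 to 5.42 FPKM in the 6 treated libraries, with SFN replicate 2 between SFN replicates 1 and 3. The kinase genes WNK2 and STK39 fell by 0.66 and 0.56 with SFN+5-FU (adjusted p = 0.00267 and 0.0153), WNK2 not (adjusted p = 0.131) when GC content and length were corrected for, and STK39 not without SFN+5-FU replicate 1 (adjusted p = 0.0566). Without SFN replicate 2, 2 of the 10 rose and 3 fell with SFN, against 56.9% of all tested genes called (30.0% higher and 26.9% lower). The low count with SFN thus depended on that library.

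**Figure D4:**
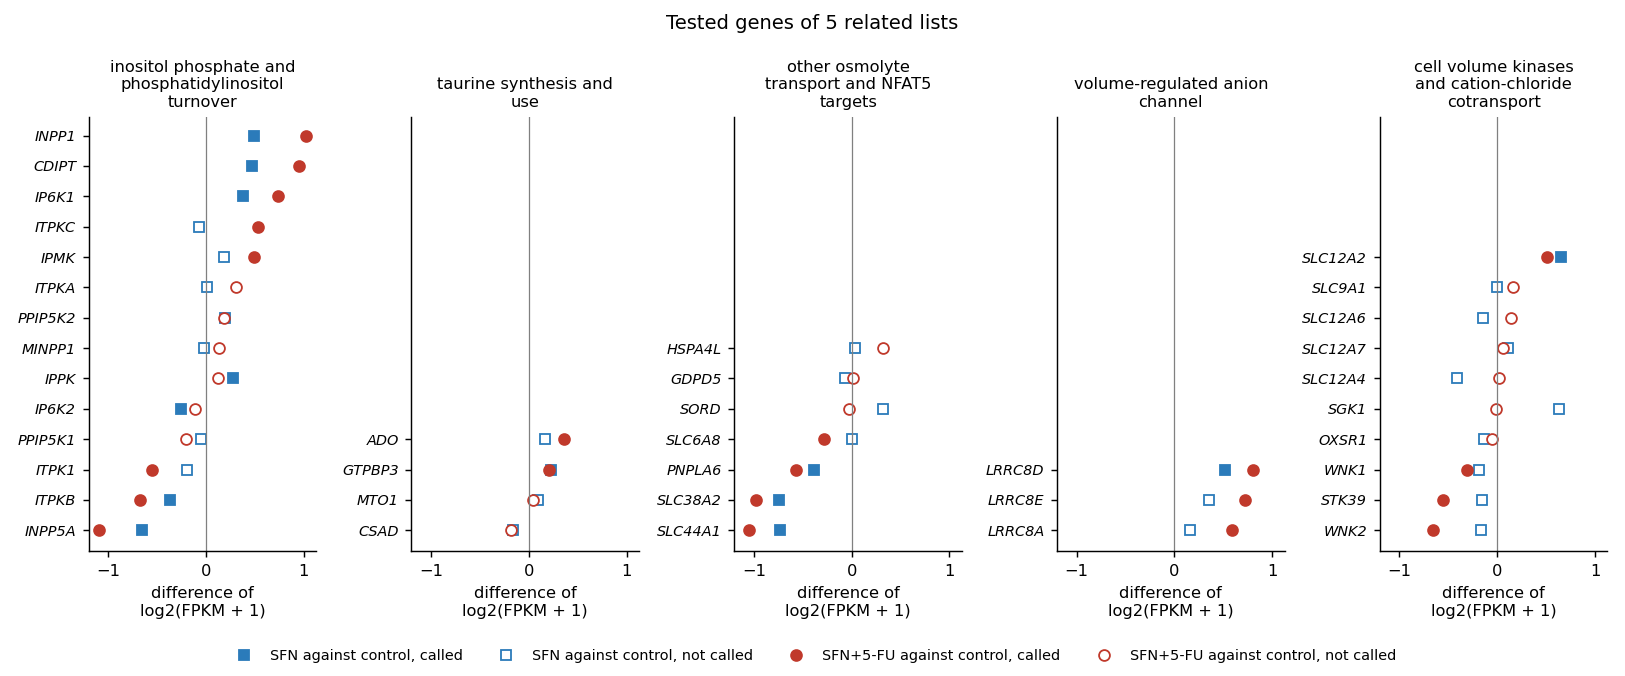
Differences from control of log2(FPKM + 1) for the tested genes of 5 related lists (a row for each gene, ordered within a list), with blue squares for SFN and red circles for SFN+5-FU, filled where called. The 3 LRRC8 genes lie to the right of 0, SLC44A1 and SLC38A2 lie furthest to the left in their list, and the inositol turnover genes spread from -1.09 (INPP5A) to 1.02 (INPP1) with SFN+5-FU.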

How the data were processed

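Libraries were poly(A)-selected, strand-marked with dUTP and sequenced from both ends, per the labels' protocols. The deposited values are gene-level FPKM, made by the authors with fastp and StringTie, with edgeR for their own tests, per the submitters' processing notes, which give no versions. Which aligner, genome build or annotation was used is not given in the sources used here. FPKM is given to 2 decimals, so depth cannot be recovered. The name table held 41002 of the 41041 identifiers and gave a symbol for 29784.

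All 9 libraries entered 1 limma fit of log2(FPKM + 1) with its trend option (residual degrees of freedom 6, prior 3.2), over the 12662 genes whose mean FPKM reached 1. Each of 3 contrasts was adjusted by the Benjamini-Hochberg method. Tests are two-sided. Intervals are 95% and come from the moderated variance. The genes and lists were chosen with earlier results of these data known. Besides the 7 genes and MRPS6, those named are up to 3 called genes of each list with the largest difference for SFN+5-FU against control, the 5 genes most like SLC5A3, and others (CSAD, CDO1, AKR1B1, SLC6A12, SLC6A8, SORD, HSPA4L, SLC5A11, LRRC8B, LRRC8C) chosen after their values were seen. Alternatives changed the filter, pseudocount, scaling, library weights, replicate block, libraries fitted, and a spline correction for GC content and transcript length (GENCODE release 29, 12504 genes). The fit was tested on simulated data. R 4.3.3, limma 3.58.1, Python 3.11.15 and matplotlib 3.10.9 were used.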

Additional observations from a re-analysis of the deposited data

How the results depend on the processing

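Depth is unknown, and with 3 libraries a group small differences can be missed. SLC6A6 and NFAT5 kept direction and call against control in every alternative run, as did IMPA1 and IMPA2 for SFN+5-FU. SLC5A3 was lower in every alternative; for SFN+5-FU against control its difference was -2.60 with a pseudocount of 5 and -3.03 with quantile normalization. Replicate numbers were not taken to pair libraries: deviations of same-numbered libraries correlated at -0.143 to 0.107 in 9 pairs, with 1 over 0.1. With the replicate number as a block, 6038 genes in place of 6333 were called for SFN and 8151 in place of 8387 for SFN+5-FU against control, and 0 in place of 1 between the treated groups.

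For SFN against control, a minimum mean of 5 FPKM left 3888 genes called, 4 in the inositol turnover list and 0 in the cell volume list (7 and 1 in the main analysis). In the inositol turnover list 2 were called with no filter and 1 with only the 6 libraries compared. In the LRRC8 list (1) no filter, quantile normalization, library weights and the GC and length correction each gave 2. The taurine list (1) had 0 called with median-of-ratios scaling or the replicate block and 3 with library weights. The cell volume list had 3 called with median-of-ratios scaling or quantile normalization, 5 with library weights and 2 with the GC and length correction. The other osmolyte list (3) had 5 with library weights.

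For SFN+5-FU against control, a minimum of 5 FPKM left 4903 genes, 5 of the inositol turnover list (8) and 2 of the cell volume list (4). Library weights gave 14 in the inositol turnover list, and no filter gave 5 in the LRRC8 list (3). Median-of-ratios scaling, quantile normalization and the replicate block each gave 1 in the taurine list (2).

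For SFN+5-FU against SFN, library weights called 7432 genes, among them 5 of the 5 tested genes other than SLC5A3, and 12, 1, 6, 3 and 7 in the inositol turnover, taurine, other osmolyte, LRRC8 and cell volume lists. Only the 6 libraries compared gave 0 genes.

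Leaving out each library in turn gave 4845 to 7200, 7287 to 9461 and 0 to 6478 genes called in the 3 comparisons, the last highest without SFN replicate 2. Of the 5 tested genes other than SLC5A3, 2 to 5, 4 to 5 and 0 to 5 were called. For SFN against control the counts were 1 to 7 (inositol turnover), 0 to 2 (taurine), 3 to 4 (other osmolyte), 1 to 2 (LRRC8) and 1 to 5 (cell volume). For SFN+5-FU against control they were 7 to 10, 1 to 2, 3 to 5, 3 to 3 and 3 to 5 in the same order, and for SFN+5-FU against SFN 0 to 12, 0 to 1, 0 to 5, 0 to 3 and 0 to 7. None of the named genes' differences called with all libraries changed sign.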

Other observations

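Several transport and volume genes, singled out after their values were seen, were at one level in SFN replicates 1 and 3 and at another in SFN replicate 2 together with the SFN+5-FU libraries. SGK1, a kinase gene induced by cell shrinkage and glucocorticoids, was at 1.17 to 1.49 FPKM in control, 3.19 and 4.21 FPKM in SFN replicates 1 and 3, 1.23 FPKM in SFN replicate 2 and 1.25 to 1.42 FPKM with SFN+5-FU. SORD, which turns sorbitol into fructose, was at 4.16 to 4.50 FPKM in control, 6.63 and 6.65 FPKM in SFN replicates 1 and 3, 4.21 FPKM in SFN replicate 2 and 4.09 to 4.42 FPKM with SFN+5-FU. The potassium-chloride cotransporter gene SLC12A4 was at 7.20 to 7.67 FPKM in control, 4.59 and 4.27 FPKM in SFN replicates 1 and 3, 7.52 FPKM in SFN replicate 2 and 7.17 to 7.63 FPKM with SFN+5-FU. The water channel gene AQP1 was below the filter, at 0.14 to 0.17 FPKM in control, 0.19 and 0.05 FPKM in SFN replicates 1 and 3, 0.91 FPKM in SFN replicate 2 and 0.81 to 0.93 FPKM with SFN+5-FU. For SGK1, SORD and SLC12A4 the SFN+5-FU libraries and SFN replicate 2 thus lay within or beside the control range, while SFN replicates 1 and 3 did not. In these genes the levels of SFN replicates 1 and 3 did not lie between control and SFN+5-FU. How many of all tested genes show this split was not counted.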
